A study of Glycine max with 6 samples.

Results

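The isoflavonoid enzymes described here are measured by 11 of the 37641 soybean probe sets of the Affymetrix Soybean GeneChip, and they stand for 5 genes. A probe set was taken where the array annotation gives it IFS1 (1 probe set), IFS2 (1), HIDH (4) or IFR1 (4) as its only gene symbol, and 1 further probe set was added, which the study names as G4DT. Probe sets of 1 gene are told apart by the letters a to d, and their full names stand on the axes of the plots of signals and differences. Seed coats came from 3 black (iRT) and 3 brown (irT) plants of the soybean variety Clark, grown without treatment, and were dissected when the fresh seed weighed 300 to 400 mg. Both genotypes carry the i and T alleles and by their names differ only at the R locus, with R in the black and r in the brown seed coat. Each genotype is 1 nearly isogenic line, so that the R locus and any other segment in which the lines differ cannot be told apart. RNA of each plant went onto an array of its own.

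Isoflavonoids are flavonoids of legumes in which a ring has migrated, and they leave the common pathway at the flavanones, before the anthocyanin branch. Isoflavone synthase (IFS), a membrane cytochrome P450, makes a 2-hydroxyisoflavanone, and 2-hydroxyisoflavanone dehydratase (HIDH) turns it into an isoflavone such as genistein or daidzein. Isoflavone reductase lies on the way from daidzein to the pterocarpans, and G4DT, a prenyltransferase, adds a dimethylallyl group to the pterocarpan glycinol, which leads to the glyceollins, the phytoalexins that soybean makes after attack by pathogens. Black seed coats accumulate anthocyanins and brown ones do not, and both pigment and isoflavonoid synthesis draw on the products of chalcone synthase.

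The deposited values are log2 signals, on which a difference of 1 is a 2-fold difference. The background level was the 95th percentile of the 23394 probe sets for soybean pathogens on the same array, 3.54 to 3.78 on the 6 arrays. All 8 probe sets of the seed coat genes Ep, SCB1, HPS and PRP lay above it in every plant, and none passed an adjusted p of 0.05. They were not level, since PRP2, a proline-rich cell wall protein, had 14.35, 13.87 and 10.44 in black plants 1, 2 and 3, against 12.40, 13.69 and 7.60 in brown plants 1, 2 and 3 on 1 of its probe sets. Transcripts of embryo storage and maturation proteins were present as well. Over a list of 45 of their probe sets, 43, 39 and 35 lay above background in black plants 1, 2 and 3, and 39, 40 and 30 in brown plants 1, 2 and 3, while 1 probe set of CG-1 and 1 of PM13 lay below it in all 6. The mean level of this list ran from 6.10 to 8.40 in black and from 5.74 to 7.02 in brown plants, and none of its probe sets passed an adjusted p of 0.05 in limma. The list nevertheless ran higher in black, with a median difference of 1.08, but not plant by plant. Its mean was 6.10 in black plant 3, below 6.40 and 7.02 in brown plants 1 and 2. Black plant 1 was the highest plant on 33 of the 45 probe sets. These come from the same 6 plants and are not replicates. Of the 45 differences of the list, 38 were above 0, against 45.4% of all soybean probe sets. At an unadjusted limma p under 0.05, 3 were higher and 0 lower, against 3.08% and 5.24% of all soybean probe sets. Its members did not share 1 pattern. In brown plants 1, 2 and 3, a probe set of PM30 had 8.44, 10.39 and 6.22. One of the storage protein gene CG-BETA-1 had 7.71, 6.22 and 7.48. These examples were picked after their values had been seen. DFR1, 1 of the controls of the study for developmental stage, gave signals of 12.64, 12.67 and 12.61 in black and 12.64, 12.44 and 12.56 in brown seed coats (limma adjusted p = 0.810). The study had matched the tissues of the genotypes on DFR1 transcript, among other traits, so this likeness is no separate check of stage. In whole seed coats, fewer cells of a type and less RNA per cell cannot be told apart.

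The genes lie apart in the Glycine max v4.0 assembly. IFS1 is at chromosome 7, 37488812 to 37491179, and IFS2 at chromosome 13, 28182456 to 28184534. RefSeq lists IFS2 among the synonyms of IFS1 and IFS1 among those of IFS2, so these names have been used both ways, and the symbols of the array are kept here. HIDH is at chromosome 1, 57467835 to 57469321, and IFR1 at chromosome 11, 5256685 to 5258682, with 7389 bases between it and the neighbouring gene IFR. G4DT is at chromosome 10, 51322013 to 51328079. The probe annotation used here has no entry for the probe set of G4DT, so its name rests on the study and on RefSeq, which lists the transcript cluster of the probe set as a synonym of G4DT. The study also designed RT-PCR primers for this transcript, which are shown because they mark the G4DT sequence that was followed beside the array.
P4F: gcagaccgttgtgttgaaga
P4R: ccaggataccaactccgaaa

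Probe sets whose names end in _s_at or _a_at can match several transcripts. IFS1 and IFS2 are close paralogs, and each is measured here by a single probe set of the _s_at kind, so either may carry signal from the other copy. In brown plants 1, 2 and 3 the IFS2 probe set had 7.28, 8.02 and 7.06, while that of IFS1 lay below background in all of them. The share of each copy in these signals was not tested. Probe sets of 1 gene share a target and are not replicates of each other. Probes bind with different strength, so signals of different probe sets are not levels of transcript relative to each other.

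The question for each gene was whether its transcript level differed between black and brown seed coats. With limma and the Benjamini-Hochberg adjustment over all 37641 soybean probe sets, none of the 11 probe sets passed an adjusted p of 0.05 in either direction, where 25 soybean probe sets (0.0664%) were higher in black and 16 (0.0425%) were lower. At an unadjusted p under 0.05, 4 of the 11 were higher in black, 3 of HIDH and that of G4DT, which the study picked on these same plants, against 3.08% of all soybean probe sets. At the same limit 2 were lower in black, both of IFR1, against 5.24%. The signals of the 3 black plants as deposited all lay above those of the 3 brown plants in 4 of the 11, against 5.74% of all soybean probe sets, and all below them in 3 of IFR1, against 8.3%. The 4 were 3 of HIDH and that of IFS1, but for IFS1 black plant 3 and all brown plants were below background, where signals have no order. The median difference over the 11 was 0.40, and over all soybean probe sets it was -0.02. With 3 plants in each genotype, the smallest two-sided p of an exact permutation test is 0.1.

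**Figure D1:**
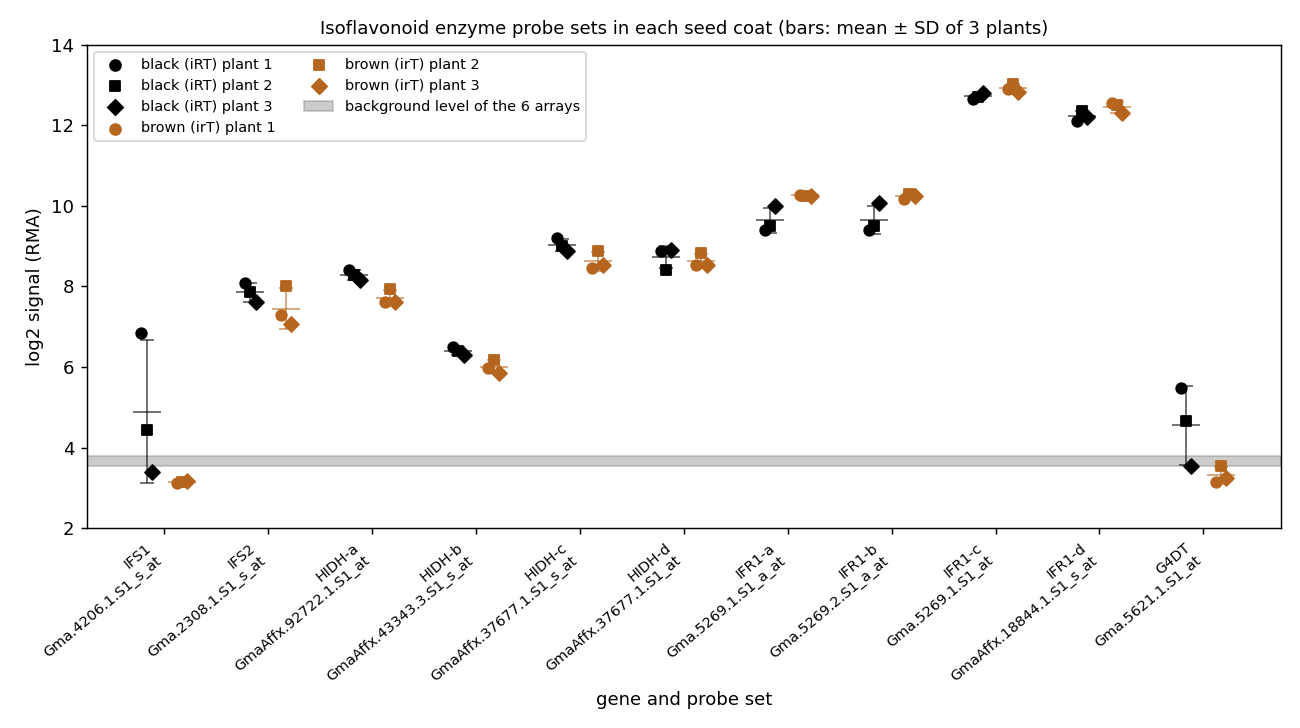
Log2 signal (vertical axis) of the 11 isoflavonoid enzyme probe sets (horizontal axis) in each black (iRT) and brown (irT) plant. Symbols are plants, bars are the mean ± SD of 3 plants, and the grey band is the range of the background level, 3.54 to 3.78; the black plants of IFS1 spread from 3.39 to 6.85 while the brown ones lie below the band.

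IFS1 was near the limit of detection in this tissue, and of the 11 probe sets it spread most among the black plants. Its probe set gave signals of 6.85, 4.44 and 3.39 in black plants 1, 2 and 3, against 3.12, 3.14 and 3.17 in brown plants 1, 2 and 3. Black plants 1 and 2 lay above background, and black plant 3 and all brown plants lay below it. Black plant 3 therefore cannot be placed against the brown plants. At the 99th percentile of the pathogen probe sets as background, 1 plant in place of 2 lay above it, black plant 1. The mean was 4.90 ± 1.78 in black and 3.15 ± 0.02 in brown (SD, n = 3 each). With the brown plants set at their background level, the mean signal in black was 2.46-fold higher. Black plant 3 entered at its measured signal, itself below background, so this is not a strict lower bound. The figure was 1.25-fold without black plant 1 and 4.15-fold without black plant 3, alternatives chosen after seeing the data. The measured difference was 1.75 (SE 0.77, 95% confidence interval -0.06 to 3.56, limma adjusted p = 0.610). Without black plant 1 it was 0.77, and without black plant 3 it was 2.50 (limma adjusted p = 0.202). The SD of IFS1 over all 6 plants, which includes the difference between genotypes, was larger than that of 99.5% of the soybean probe sets.

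IFS2 was detected in every plant. Its signals were 8.07, 7.87 and 7.62 in black plants 1, 2 and 3, against 7.28, 8.02 and 7.06 in brown plants 1, 2 and 3. Brown plant 2 lay above black plants 2 and 3, so the groups overlapped. The mean was 7.85 ± 0.23 in black and 7.45 ± 0.50 in brown (SD, n = 3 each). The difference of 0.40 (SE 0.25, 95% confidence interval -0.19 to 0.99, limma adjusted p = 0.709) depended on single plants. It was 0.68 without brown plant 2 and 0.20 without brown plant 3.

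HIDH, the dehydratase that acts on the product of IFS, was above background in every plant on all 4 of its probe sets, and all 4 had a higher mean in black. HIDH-a gave signals of 8.41, 8.27 and 8.16 in black plants 1, 2 and 3, against 7.61, 7.94 and 7.61 in brown plants 1, 2 and 3. The groups did not overlap, and brown plant 2 came closest to the black plants. The mean was 8.28 ± 0.13 in black and 7.72 ± 0.19 in brown (SD, n = 3 each), a 1.48-fold difference (log2 0.56, SE 0.13, 95% confidence interval 0.26 to 0.86). Its unadjusted p of 0.00295 was the smallest of the 11 and became 0.342 after adjustment in limma.

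The 3 other probe sets of HIDH gave differences of different size. HIDH-b had 6.50, 6.40 and 6.30 in black plants 1, 2 and 3, against 5.98, 6.17 and 5.85 in brown plants 1, 2 and 3 (difference 0.40, SE 0.11, limma adjusted p = 0.473). HIDH-c had 9.19, 9.00 and 8.881 in black plants 1, 2 and 3, against 8.46, 8.877 and 8.52 in brown plants 1, 2 and 3 (difference 0.41, SE 0.14, limma adjusted p = 0.552). Neither overlapped between the groups, although on HIDH-c black plant 3 and brown plant 2 were nearly level. HIDH-d had 8.87, 8.41 and 8.91 in black plants 1, 2 and 3, against 8.52, 8.82 and 8.53 in brown plants 1, 2 and 3. Here black plant 2 was the lowest of all 6 and the groups overlapped (difference 0.11, 95% confidence interval -0.28 to 0.49, limma adjusted p = 0.891). The probe sets of HIDH thus disagreed on whether the genotypes overlapped. Each difference stayed above 0 under every alternative that could change it, but that of HIDH-d came close to 0. It ran from 0.01 without black plant 3 to 0.27 without black plant 2.

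**Figure D2:**
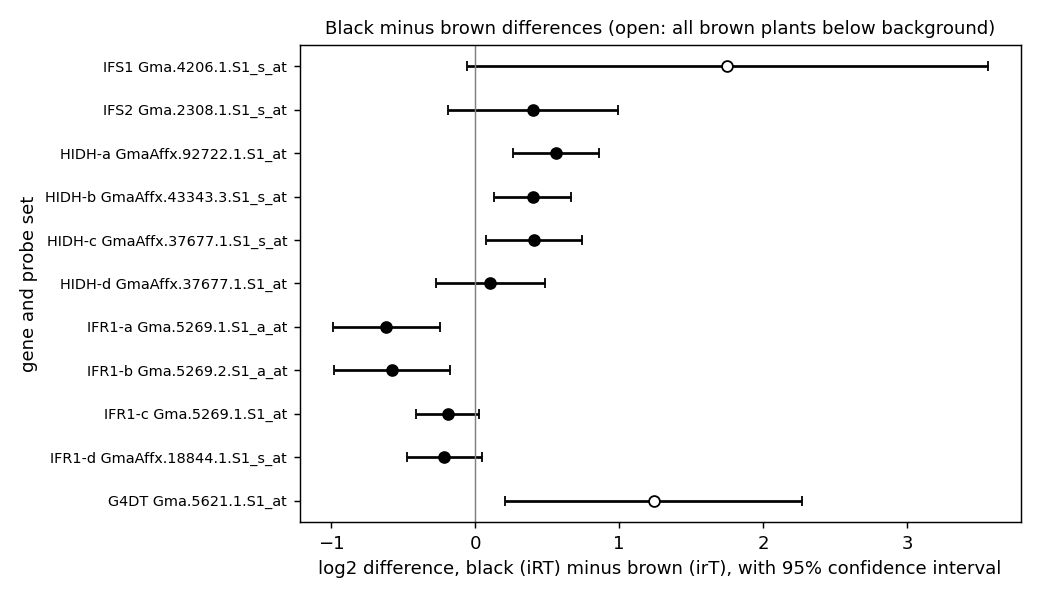
Difference in log2 signal, black (iRT) minus brown (irT), of the 11 probe sets (rows), with limma's 95% confidence interval as bars. Open circles mark IFS1 and G4DT, whose brown plants all lay below background; the HIDH differences lie above 0 and the IFR1 differences below it.

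IFR1 had a lower mean in black seed coats on all 4 of its probe sets, the opposite direction to IFS and HIDH. Its sequence record is that of an isoflavone reductase homolog, a relative of the enzyme that reduces isoflavones, and which substrate it uses was not measured. IFR1-a gave signals of 9.40, 9.51 and 10.00 in black plants 1, 2 and 3, against 10.28, 10.24 and 10.25 in brown plants 1, 2 and 3. The brown plants were nearly level, and black plant 3 was the black plant closest to them. The mean was 9.64 ± 0.32 in black and 10.26 ± 0.02 in brown (SD, n = 3 each), with a difference of -0.62 (SE 0.16, 95% confidence interval -0.99 to -0.25, unadjusted p = 0.00555, limma adjusted p = 0.426). Without black plant 3 the limma adjusted p was 0.0727, the lowest of any of the 11 probe sets under any alternative.

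IFR1-b, like IFR1-a of the _a_at kind, had 9.41, 9.51 and 10.06 in black plants 1, 2 and 3, against 10.18, 10.30 and 10.24 in brown plants 1, 2 and 3 (difference -0.58, SE 0.17, limma adjusted p = 0.489). It showed the same order of black plants and no overlap. IFR1-c had 12.66, 12.71 and 12.80 in black plants 1, 2 and 3, against 12.89, 13.02 and 12.83 in brown plants 1, 2 and 3 (difference -0.19, SE 0.09, limma adjusted p = 0.639). IFR1-d had 12.11, 12.36 and 12.21 in black plants 1, 2 and 3, against 12.54, 12.49 and 12.30 in brown plants 1, 2 and 3 (difference -0.22, SE 0.11, limma adjusted p = 0.654). On this last probe set black plant 2 lay above brown plant 3 and the groups overlapped, whereas on IFR1-c they did not. IFR1-c and IFR1-d gave smaller differences than IFR1-a and IFR1-b, and this contrast between probe sets was not tested.

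A further probe set is called IFR1-like by the study and carries no IFR1 symbol in the annotation. The study describes its target as highly similar to IFR1, and whether the IFR1 probe sets also match that transcript was not tested. The IFR1-like probe set gave signals of 9.85, 10.54 and 9.65 in black plants 1, 2 and 3, against 11.95, 12.12 and 11.60 in brown plants 1, 2 and 3. Every black plant lay below every brown plant. The mean was 10.01 ± 0.47 in black and 11.89 ± 0.26 in brown (SD, n = 3 each), with a difference of -1.88 (SE 0.25, limma adjusted p = 0.0684). The study picked this probe set by its fold change in these same plants, so its difference is only a description. Among the other reductases, 1 of the 3 IFR2 probe sets lay between 12.92 and 13.14 in all 6 plants (limma adjusted p = 0.899), the others had limma adjusted p of 0.756 and 0.923, and both probe sets of IFR, the neighbour of IFR1, lay below background in all 6. IFR2 and IFR were named after their values had been seen.

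G4DT, the prenyltransferase of glyceollin synthesis, had low signals with a wide spread among the black plants. The probe set had 5.49, 4.65 and 3.54 in black plants 1, 2 and 3, against 3.15, 3.55 and 3.25 in brown plants 1, 2 and 3. Black plants 1 and 2 lay above background, whereas black plant 3 and all brown plants lay below it. Signals below background have no order, so black plant 3 cannot be placed against the brown plants. The mean was 4.56 ± 0.98 in black and 3.32 ± 0.21 in brown (SD, n = 3 each). Against the background level of the brown plants the signal in black was 1.95-fold higher, and without black plant 1 it was 1.41-fold higher. Black plant 3 entered at its measured signal below background, so these are not strict lower bounds. The measured difference was 1.24 (SE 0.44, 95% confidence interval 0.21 to 2.27, limma adjusted p = 0.552), and it was 0.78 without black plant 1 and 1.75 without black plant 3. The study picked this probe set by its fold change and p in these plants, so its difference on the arrays is a description and no support for a change. The study also followed G4DT by RT-PCR, and the outcome is not reported here. The annotation gives the symbol G4DT to a pair of other probe sets, which were named after their values had been seen. On the first of them the values were 3.86, 3.27 and 2.52 in black plants 1, 2 and 3, against 3.17, 2.88 and 2.73 in brown plants 1, 2 and 3, above background only in black plant 1. The other lay between 2.37 and 2.64, below background in all 6 plants.

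Black plant 1 had the highest signal of the 6 plants in 6 of the 11 probe sets, those of IFS1, IFS2 and G4DT and 3 of HIDH, and in 6662 of all soybean probe sets (17.7%). It also stood highest on the embryo list. The mean deviation of that list from the mean of the 6 plants was 1.55, 0.618 and -0.754 in black plants 1, 2 and 3, and -0.454, 0.16 and -1.12 in brown plants 1, 2 and 3. Within each genotype the order of the plants on IFS2 and on HIDH-b was the order on the embryo list. The other probe sets of HIDH did not keep it. Brown plants 1 and 3 were nearly level on HIDH-a, and on HIDH-c brown plant 3 was above brown plant 1 (8.52 against 8.46). On HIDH-d black plant 3 was the highest and black plant 2 the lowest of all 6. The black plants above background on IFS1 were plants 1 and 2, the higher ones on the embryo list, and its brown signals, all below background, cannot be ordered.

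With the level of the embryo list as a covariate in limma, the difference was 0.71 for IFS1, 0.09 for IFS2 and 0.58 for G4DT. It was 0.43 for HIDH-a, 0.25 for HIDH-c and -0.43 for IFR1-a. All of these kept their direction and were smaller in size than without the covariate. Of the 11, IFR1-d alone was larger in size with it, at -0.23 against -0.22 without. The part of embryo transcripts in these differences was not tested beyond this fit.

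**Figure D3:**
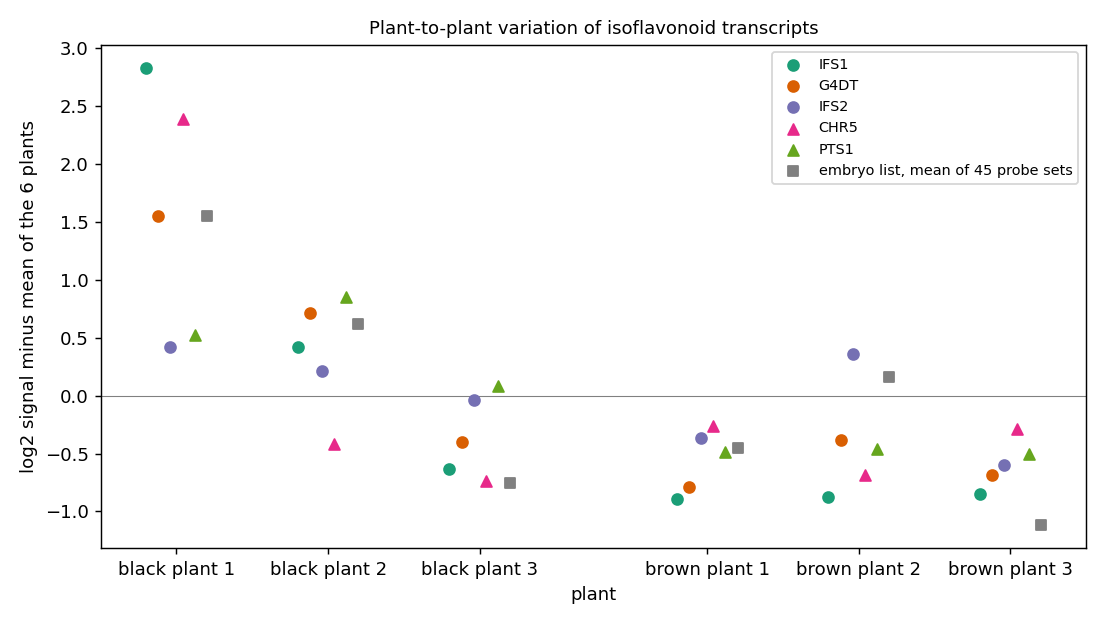
Deviation of the log2 signal from the mean of the 6 plants (vertical axis) for IFS1, G4DT, IFS2, CHR5 and PTS1, and the mean deviation of 45 embryo probe sets (grey squares), in each plant (horizontal axis). Black plant 1 is highest on IFS1, G4DT, IFS2, CHR5 and the embryo list, while PTS1 is highest in black plant 2 and sets the genotypes apart.

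The other isoflavonoid genes were taken as a list of 34 probe sets for 19 gene symbols, among them chalcone reductases (CHR), chalcone isomerases (CHI), the glucosyl- and malonyltransferases of isoflavones and enzymes of the pterocarpan branch. None of the 34 passed an adjusted p of 0.05 in limma in either direction, 2 were higher in black at an unadjusted p under 0.05 and none was lower at that limit, against 3.08% and 5.24% of all soybean probe sets. Of the 34, 20 lay below background in all 6 plants and 10 lay above it in all 6. Over all soybean probe sets, 27.3% lay below background in all 6 plants and 64.8% above it in all 6. The median difference of the list was 0.14, and most of the probe sets behind it had no signal above background. The list also holds a probe set with the symbol CHIA1, which is believed to be a chitinase and not a chalcone isomerase. It had 8.87, 8.23 and 6.47 in black plants 1, 2 and 3, against 6.30, 8.09 and 4.89 in brown plants 1, 2 and 3.

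The smallest p of this list belonged to PTS1, pterocarpan synthase, which closes the last ring of the pterocarpans. Its probe set gave signals of 5.28, 5.61 and 4.84 in black plants 1, 2 and 3, against 4.27, 4.30 and 4.25 in brown plants 1, 2 and 3. All 6 plants were above background, and every black plant lay above every brown one. The difference was 0.97 (SE 0.18, unadjusted p = 0.00109), with a limma adjusted p of 0.233. PTS1 is at chromosome 3, 37512659 to 37513316. The next smallest p, 0.0377 unadjusted and 0.573 adjusted in limma, belonged to a probe set of IF7MaT, an isoflavone malonyltransferase, which lay below background in all 6 plants.

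Chalcone reductase works together with chalcone synthase to make the chalcone that leads to daidzein. The CHR and CHI genes that follow, and CHIA1, were singled out after their values had been seen. CHR5 resembled IFS1 in that black plant 1 stood apart. Its probe set had 6.77, 3.97 and 3.65 in black plants 1, 2 and 3, against 4.12, 3.70 and 4.10 in brown plants 1, 2 and 3 (limma adjusted p = 0.795). Both probe sets of CHR1 were above background in black plant 1 only, with 4.09 and 3.97 in that plant. CHR4 differed little, with 8.73 to 9.06 over all 6 plants. CHI1A, a chalcone isomerase, had 9.77, 9.73 and 9.73 in black plants 1, 2 and 3, against 9.55, 9.56 and 9.58 in brown plants 1, 2 and 3, without overlap (difference 0.18, limma adjusted p = 0.611).

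Next to these, the pathway shared with all flavonoids and the pigment branches held the called differences. Among 21 probe sets of 4CL, C4H and CHS, the enzymes that lead to the chalcones, 3 rose and 2 fell in black seed coats. Over all soybean probe sets, 0.0664% were higher and 0.0425% lower at the same adjusted p of 0.05 in limma. The median difference of the 21 was 0.03. The annotation of the array gave no probe set of PAL to this list. The higher ones were of 4CL4, a 4-coumarate:CoA ligase (difference 1.18, limma adjusted p = 0.0460), and a pair of chalcone synthase probe sets, at least 5.18-fold and at least 4.21-fold higher. This pair and both lower probe sets are annotated as CHS1, but the study assigned the pair and 1 of the lower ones to other chalcone synthase genes, and the 4CL4 probe set to another 4CL gene. The difference was -5.15 on the lower probe set that the study also calls CHS1 (limma adjusted p = 7.50e-05), and on the other all black plants lay below background and all brown plants above it. Among 9 probe sets of other flavonoid branches, DFR2, a dihydroflavonol reductase, was at least 38.2-fold higher in black (limma adjusted p = 1.18e-05). ANS2, an anthocyanidin synthase, rose by 2.76 (limma adjusted p = 0.00261), and LAR1, a leucoanthocyanidin reductase, fell by 1.18 (limma adjusted p = 0.00361). The differences of IFS1, IFS2, HIDH and IFR1 did not pass that threshold.

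**Figure D4:**
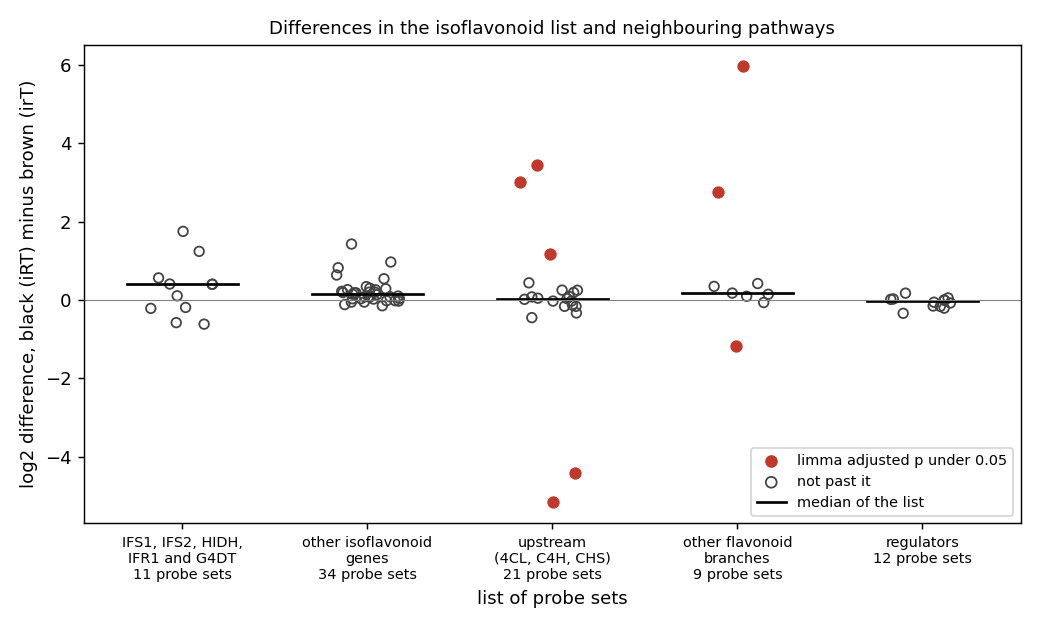
Difference in log2 signal, black (iRT) minus brown (irT), of single probe sets (points) in the 11 isoflavonoid enzyme probe sets, 34 of other isoflavonoid genes, 21 upstream, 9 of other flavonoid branches and 12 of regulators. Red points have a limma adjusted p under 0.05 and black lines are medians; red points are in the upstream and branch lists only.

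Regulators named for isoflavonoid synthesis, MYB factors and 14-3-3 proteins of the SGF14 family, gave 12 probe sets, of which none passed the adjusted p, none had an unadjusted p under 0.05, and 10 were above background in all 6 plants. The median difference was -0.03. The smallest p values belonged to a probe set of MYB133 (difference -0.34, limma adjusted p = 0.629) and the probe set of SGF14M, a 14-3-3 protein (difference -0.21, limma adjusted p = 0.671).

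Patterns over the 6 plants were compared by the root mean square difference of the deviations from the mean of each probe set, over 6684 to 6688 probe sets of other genes, each with 1 symbol and above background in all plants. For HIDH and IFR1 the probe set with the highest mean signal was used, HIDH-c and IFR1-c. All points come from the same 6 arrays, so likeness also carries what the arrays share. The patterns closest to IFS1 were those of LOC547716 (0.276) and LOX2, a lipoxygenase (0.281). LOX2 gave signals of 9.97, 7.80 and 6.58 in black plants 1, 2 and 3, against 6.37, 6.88 and 5.97 in brown plants 1, 2 and 3. Like IFS1 it was highest in black plant 1, and 4 of the 6 signals of IFS1 behind this likeness were below background. VPE, a vacuolar processing enzyme, was among the closest to both IFS2 (0.144) and HIDH-c (0.0598). The signals of VPE were 9.86, 9.54 and 9.41 in black plants 1, 2 and 3, against 9.01, 9.53 and 9.05 in brown plants 1, 2 and 3. The closest to IFS2 was LOC100037476 (0.134), and LOC100802281 (0.0649) came next for HIDH. For IFR1-c they were LOC100795032 (0.0259) and LOC100499972 (0.0268), and the small values there go with the small range of that probe set.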

How the data were processed

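Seed coat RNA of 3 black (iRT) and 3 brown (irT) plants (100 ng each, transcribed in vitro for 16 h) was hybridized to 6 arrays. The authors deposited log2 signals made by RMA, which adjusts for background, normalizes all arrays together by quantiles and summarizes the probes, so a difference shared by all transcripts would be removed. The fold changes, SAM scores and p values in the tables of the authors for selected probe sets were not used. The names the study gives to probe sets, and which of them it picked, were taken from the study.

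The genotypes were compared on the log2 signals by the two-sided moderated test of limma 3.58.1 (R 4.3.3, prior degrees of freedom 3.17), with Benjamini-Hochberg adjustment over 37641 soybean probe sets and a threshold of 0.05. limma replaced the SAM statistic of the study, since it gives a standard error. Of the soybean probe sets, 8677 have 1 symbol, 370 several and 28594 none. The labels call the plants biological replicates. The number of arrays limits the precision.

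The probe sets and lists were chosen with earlier results of these data known. All probe sets of the 5 genes were named, with those of each other list that passed the threshold or else the 2 with the smallest p, DFR1, IFR1-like, and the 2 closest patterns of each gene other than G4DT. The fit was tested on simulated data. Alternatives were other variance moderation, array weights, probe set filters, normalizations, a block, an embryo covariate, the thresholds of the study and each plant left out. Tables and figures were made with Python 3.11.15, pandas 2.3.3, numpy 2.4.6 and matplotlib 3.10.9.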

Additional observations from a re-analysis of the deposited data

How the results depend on the processing

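Over 167 combinations of a probe set of the 5 genes and an alternative, all 167 differences kept their direction and none passed an adjusted p of 0.05 in limma (lowest 0.0727). Other variance moderation, the choice of probe sets, the replicate block and the thresholds of the study leave the difference itself unchanged. In those combinations the direction could not change. IFS1 lay above the 99th percentile of the pathogen probe sets in 1 plant, against 2 plants at the 95th. The count of soybean probe sets higher in black, 25, was 40 with trend and robust moderation, 39 with median centring and 68 at the thresholds of the study (fold above 2 or below 0.5, with an unadjusted limma p under 0.01), and 9 to 20 with 1 plant left out. The count lower in black, 16, was 8 with the embryo covariate, 46 at the thresholds of the study and 4 to 13 with 1 plant left out. With 1 plant left out, 3 to 4 probe sets of the other pathway lists were higher in black in place of 5, with 3 each without black plant 1, brown plant 1, brown plant 2 and brown plant 3. The causes were not tested. Plants of the same number in both genotypes were not paired by the labels, and their deviations correlated at 0.0923, 0.291 and 0.502. In a fit with a replicate block, 14 soybean probe sets were higher and 9 lower in black, and none of the 11 was called. IFS1 and G4DT were not tested with dim probe sets left out, and 4 of the 11 remained without the _s_at, _x_at and _a_at probe sets. Signals below the background level, as for IFS1 and G4DT in brown seed coats, are bounds and have no order.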
